A study of Homo sapiens with 12 samples.

Results

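The D-type cyclins CCND1, CCND2 and CCND3 and the retinoblastoma gene RB1 were followed at the mRNA level in LX-2, an established line of activated human hepatic stellate cells. They were taken by name and make up 4 of the 199 genes on the nCounter Dx Human Stem Cell Panel, which counts the mRNAs of genes of pluripotency and differentiation. LX-2 cells received a miR-25 mimic or, as control, a mimic of nematode sequence, both at 10 pmol/ml, and their RNA was counted after 24 h or 48 h. This gave 4 groups of 3 samples: control at 24 h, miR-25 at 24 h, control at 48 h and miR-25 at 48 h. Every group was thus transfected with a small RNA and none was untreated. A control and a miR-25 sample with the same replicate number at a time point share 1 value of transfection efficiency, and they were taken here as a replicate pair, 6 pairs in all. The labels number the replicates 1 to 3 at both time points but do not say whether equal numbers at 24 h and 48 h share a culture, and the time points were compared as unpaired. The efficiency, the share of cells that took up a labelled control miRNA in a parallel well, was between 42% and 81%. It was not measured in the counted wells themselves. For each sample the labels also give a relative miR-25 expression, which is 1 in every control. In miR-25 replicates 1 to 3 it was 62.34, 192.53 and 350.13 at 24 h, and 347.45, 482.36 and 681.22 at 48 h. LX-2 is a single line, and nothing here says how primary stellate cells behave.

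D-type cyclins carry growth signals into the cell cycle. Each binds the kinases CDK4 and CDK6, and the complexes phosphorylate the retinoblastoma protein, which otherwise holds E2F transcription factors inactive and keeps cells out of S phase. CCND1 is the D-type cyclin best known for induction by mitogens in fibroblast-like cells, and stellate cells start to divide when they are activated in injured liver. These are actions of proteins, whereas the panel measures mRNA.

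The questions were which D-type cyclin gave most counts, how the 4 genes differed between 48 h and 24 h, and how miR-25 and control samples differed within a pair. The mimic stands for hsa-miR-25-3p, which RefSeq places at chr7:100093571-100093592 on the minus strand of GRCh38.p14. It is printed because it is the agent compared with control, and the capitals mark the seed, bases 2 to 8.
hsa-miR-25-3p: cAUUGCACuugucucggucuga

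In RefSeq (GRCh38.p14), CCND1 (NM_053056.2 on the panel) lies on chromosome 11 from 69641156 to 69654474, and CCND2 (NM_001759.2) on chromosome 12 from 4273762 to 4305353. CCND3 (NM_001760.2) lies on chromosome 6 from 41934933 to 42050035, and RB1 (NM_000321.1) on chromosome 13 from 48303751 to 48481890. Each mRNA is counted through a single window of 100 bases, to which a capture and a barcoded reporter probe bind. The windows of CCND1 and RB1, the members with most counts, are given in lower case to show what the assay reads, each with 1 reading frame free of stop codons.
CCND1 window: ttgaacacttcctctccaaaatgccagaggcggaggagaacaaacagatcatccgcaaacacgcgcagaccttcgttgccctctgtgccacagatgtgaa
RB1 window: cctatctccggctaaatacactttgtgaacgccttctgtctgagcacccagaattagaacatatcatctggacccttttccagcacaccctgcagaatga

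The complement of the seed, GTGCAAT, was searched on the sense strand of the panel's windows. It was in 0 of the 193 windows searched, the 4 members' included. This says only that these letters are not in the counted windows, and the rest of the transcripts was not searched.

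Levels are given as CPM (counts per 1000000), the count of a gene scaled by the total over all genes of the sample. That total was 321243 to 409581 at 24 h and 107377 to 200821 at 48 h, so time point, replicate pair and depth cannot be told apart. All 6 stellate or mesenchymal markers checked (COL1A1, CDH2, CD44, PLAU, FGF2 and CXCL12) were above background in every sample. In contrast, 0 of 4 T cell, 0 of 3 epithelial or endodermal, 1 of 5 pluripotency (POU5F1) and 0 of 2 muscle markers were. CD4 was above background in 11 of 12 samples, NANOG in 8 and KRT15 in 5, with at most 43, 24 and 18 counts. Both samples of 48 h replicate 1 stood apart. They held the stellate chemokine CXCL12 at 3353 CPM (control) and 2079 CPM (miR-25), against 29763 to 35942 CPM in the other 10 samples. This pair also had the lowest labelled uptake, 42%, and the largest GAPDH share, 32.7% and 33.4%. The changes of the members between the time points are therefore given with and without it.

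All 4 members were above background, set 2 SD over the mean of the negative probes, in 12 of 12 samples. CCND1 averaged 4857 counts over the samples, rank 12 of 199 genes. RB1 averaged 3032 counts (rank 20), CCND3 495 counts (rank 69) and CCND2 88.8 counts (rank 114). CCND1 and RB1 thus were among the more abundant signals of the panel, whereas CCND2 was counted as few as 21 times in a sample, 2.85 times the background level. Such counts leave CCND2 with the widest counting error of the 4.

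CCND1, the cyclin D1 gene, was high at 24 h, at 23892, 18087 and 18488 CPM in control replicates 1 to 3. The miR-25 samples of the same pairs held 26381, 20372 and 19004 CPM. At 48 h the control samples held 16875, 8668 and 9238 CPM, and the miR-25 samples 18438, 8564 and 9063 CPM. Every 48 h sample lay below every 24 h sample of its arm, and replicate 1 was the highest of its group at both time points.

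CCND3, the cyclin D3 gene, which many cell types express, was found at 1550, 1617 and 1955 CPM in the 24 h controls and at 1680, 1924 and 1878 CPM in the 24 h miR-25 samples. At 48 h it was 1825, 2075 and 2128 CPM in controls and 2060, 2308 and 2186 CPM after miR-25. The control ranges overlapped between time points, and in the miR-25 arm all 48 h samples were above those of 24 h, as for 18.4% of the genes tested there (21.3% in controls).

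CCND2, the cyclin D2 gene, was found at 284, 423 and 408 CPM in the 24 h controls and at 230, 416 and 400 CPM after miR-25. At 48 h it was 196, 298 and 355 CPM in controls and 212, 352 and 274 CPM after miR-25. Replicate 1 was here the lowest sample of each group, the opposite of CCND1, and the time points overlapped in both arms.

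RB1, whose protein is the target of the cyclin D kinases, was found at 10640, 10966 and 10746 CPM in the 24 h controls and at 10818, 11262 and 11304 CPM after miR-25. At 48 h it was 10431, 13634 and 13253 CPM in controls and 10242, 14010 and 12997 CPM after miR-25. The 6 samples at 24 h lay close together. At 48 h both samples of replicate 1 were slightly below all of these, while the other 48 h samples were above them.

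**Figure D1:**
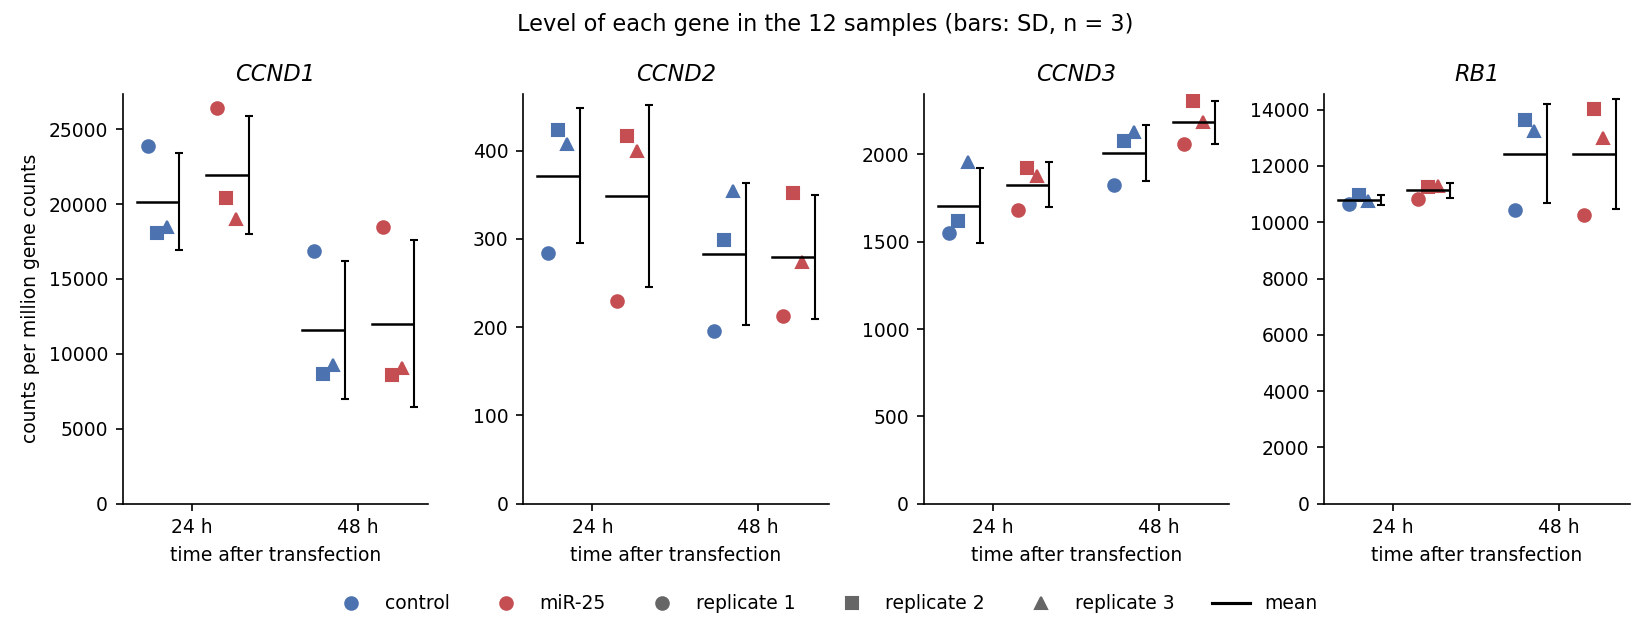
Level in CPM (linear axes from 0) of CCND1, CCND2, CCND3 and RB1 in each control (blue) and miR-25 (red) sample at 24 h and 48 h; marker shape gives the replicate number, horizontal lines the mean and bars the SD (n = 3). CCND1 was lower at 48 h in both arms, with replicate 1 (16875 and 18438 CPM) far above the other 48 h samples, and the arms of a pair lay close together.

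CCND1 gave most of the D-type cyclin counts in every sample. Its share of the summed CCND1, CCND2 and CCND3 count was 90.5% ± 2.16 (SD, n = 3) in the 24 h controls and 90.7% ± 2.18 in the 24 h miR-25 samples. At 48 h it was 82.2% ± 6.15 in controls and 81.3% ± 6.77 after miR-25, and the lowest share in any sample was 76.3%. CCND3 made up 7.81% ± 1.69 in controls at 24 h and 15.5% ± 5.10 at 48 h. CCND2 made up 1.72% ± 0.538 and 2.25% ± 1.07 at these times. The order CCND1, CCND3, CCND2 held in all 12 samples. A count is not a number of molecules across genes, since 1 window is read in each transcript and probe efficiency is not known, so the shares describe counts on this panel. The CCND1 share moved by less than 1 SD when the negative probe mean was subtracted.

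The spread between the 3 pairs of a time point differed strongly among members. At 24 h the log2 range of the level, both arms averaged, was 0.71 for CCND2 (rank 2 of 136 genes tested, from the widest) and 0.42 for CCND1 (rank 13). It was 0.25 for CCND3 (rank 46) and 0.05 for RB1 (rank 123), with a median of 0.18 over all genes tested. RB1 was therefore among the most even genes at 24 h. At 48 h the range was 1.03 for CCND1 (rank 20), 0.67 for CCND2 (rank 35), 0.42 for RB1 (rank 67) and 0.17 for CCND3 (rank 114), with a median of 0.41. At 48 h CCND3, and no longer RB1, was the steadiest of the 4.

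The pair with the lowest labelled uptake at each time point was also the one with most CCND1 and least CCND2. At 24 h uptake was 59%, 75% and 81% in replicates 1 to 3, and mean CCND1 over both arms was 25106, 19195 and 18744 CPM. At 48 h uptake was 42%, 61% and 65%, and mean CCND1 was 17639, 8616 and 9150 CPM. CCND2 was 255, 420 and 404 CPM at 24 h and 204, 324 and 312 CPM at 48 h. The part of uptake in these levels was not tested.

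Between 24 h and 48 h CCND1 was lower in both arms, but the change did not pass the test with all samples. Counts of the 136 genes that averaged 20 or more entered the quasi-likelihood test of edgeR, with Benjamini-Hochberg adjustment over all 136. In controls CCND1 averaged 20155 ± 3242 CPM at 24 h and 11594 ± 4583 at 48 h (SD, n = 3), a log2 fold change of -0.80 (SE 0.27, 95% interval -1.43 to -0.17, edgeR adjusted p = 0.124). In the miR-25 arm it averaged 21919 ± 3924 and 12022 ± 5562 CPM (-0.87, SE 0.31, interval -1.60 to -0.14, edgeR adjusted p = 0.118). Over the genes tested, CCND1 had the third lowest fold change in controls (rank 3) and the second lowest in the miR-25 arm (rank 2). Both arms come from the same pairs, so one is no independent repeat of the other. A level below all 24 h samples in all 48 h samples was found for 14.0% of the genes tested in controls and for 22.8% in the miR-25 arm, a background against which the separation of CCND1 has to be read.

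Without 48 h replicate 1 the CCND1 difference was wider and passed. In controls it was then -1.17 (fold 0.444, edgeR adjusted p = 0.000161) and in the miR-25 arm -1.31 (fold 0.402, edgeR adjusted p = 0.00011). The pair left out held the most CCND1 at 48 h, so the wider difference follows from its removal. With any other single sample left out CCND1 did not pass. The edgeR adjusted p was then 0.199 to 0.271 in controls and 0.235 to 0.278 in the miR-25 arm. Among these, leaving out 24 h replicate 1, which held the most CCND1 at 24 h, narrowed the difference. It was then -0.66 in controls (edgeR adjusted p = 0.267) and -0.71 in the miR-25 arm (edgeR adjusted p = 0.278). With all samples edgeR called 0 of the 4 members in either arm, beside 5.15% of genes in controls and 7.35% in the miR-25 arm. The unadjusted p was under 0.05 for 1 member in controls (CCND1) and for 2 in the miR-25 arm (CCND1 and CCND3), beside 30.9% and 31.6% of genes. DESeq2 called CCND1 in controls (adjusted p = 0.0496) and CCND3 in the miR-25 arm (0.0457), both close to the threshold, beside 16.2% and 24.3% of genes. Without that pair 2 of 4 were called in controls (CCND1 lower, RB1 higher) beside 39.7% of genes, and 3 of 4 in the miR-25 arm (CCND3 higher as well) beside 45.6%. The calls on RB1 and CCND3 thus stand among a large share of the panel. With only 2 samples left at 48 h these values rest on their small spread.

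RB1 and CCND3 differed little between the time points. RB1 was 10784 ± 166 CPM at 24 h and 12440 ± 1750 at 48 h in controls (log2 fold change 0.21, interval -0.08 to 0.49, edgeR adjusted p = 0.272), and 0.16 in the miR-25 arm (interval -0.15 to 0.47, edgeR adjusted p = 0.448). Without 48 h replicate 1 it was 0.32 (edgeR adjusted p = 0.00222) in controls and 0.28 (0.00497) in the miR-25 arm. CCND3 was 1707 ± 217 and 2009 ± 162 CPM in controls (0.24, interval -0.07 to 0.55, edgeR adjusted p = 0.247) and 0.26 in the miR-25 arm (interval 0.02 to 0.50, edgeR adjusted p = 0.142). Without that pair it was 0.30 in both arms (edgeR adjusted p = 0.0793 in controls and 0.0296 after miR-25). CCND2 was 372 ± 76.1 and 283 ± 80.7 CPM in controls (-0.36, interval -0.97 to 0.25, edgeR adjusted p = 0.36) and -0.32 in the miR-25 arm (interval -1.02 to 0.38, edgeR adjusted p = 0.497). Without 48 h replicate 1 CCND2 was -0.17 in controls and -0.16 after miR-25 (edgeR adjusted p = 0.566 and 0.663). The intervals of CCND2 with all samples leave room for a decrease by a factor of 2 as well as for an increase.

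**Figure D2:**
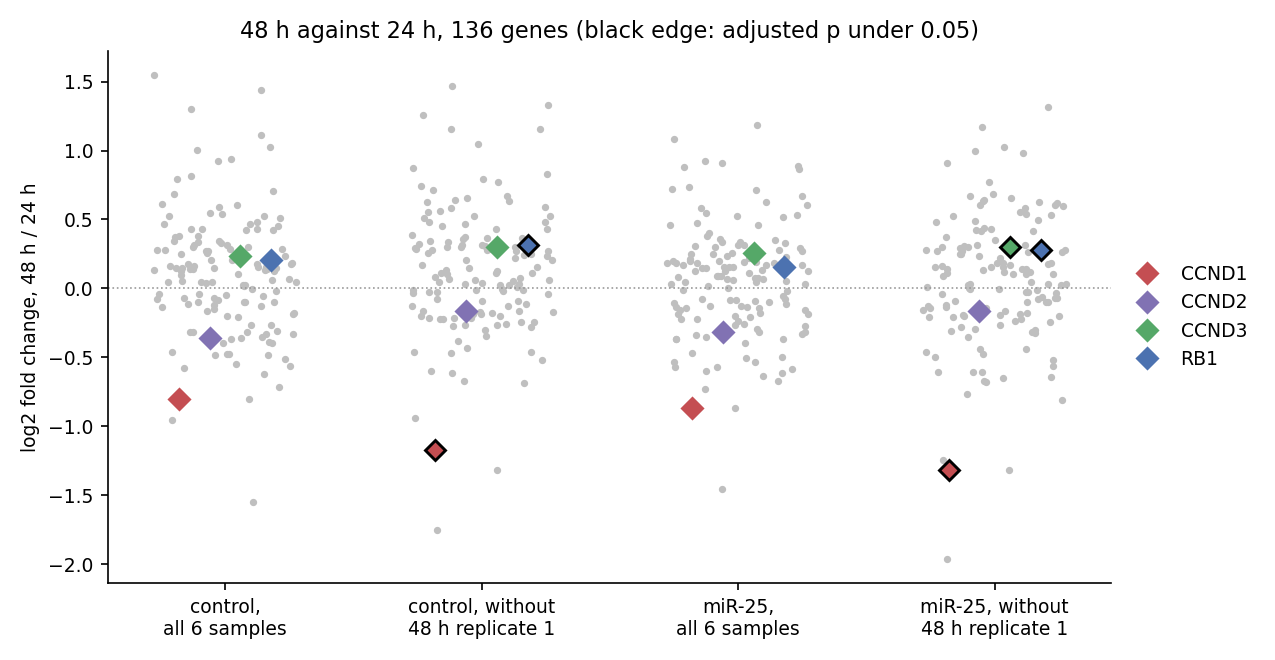
Log2 fold change of 48 h over 24 h (linear axis of log2 values, counts scaled to the sample total) for the 136 genes tested (grey, spread sideways at random) and the 4 members (diamonds; black edge for adjusted p under 0.05), in each arm with all samples and without 48 h replicate 1. CCND1 moved from -0.80 to -1.17 in controls and from -0.87 to -1.31 in the miR-25 arm. RB1 and CCND3 lay above 0 in all 4 columns. With all samples this sign turned when counts were scaled to the positive control probes instead, a scaling not fitted without 48 h replicate 1.

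The scaling matters for RB1 and CCND3. When counts were scaled to the positive control probes, which follow the assay and not the RNA, the median log2 fold change over all genes tested moved from 0.13 to -0.64 in controls and from 0.09 to -0.46 in the miR-25 arm. RB1 then was -0.53 and -0.39, and CCND3 -0.50 and -0.30, in controls and after miR-25. CCND1 was -1.67 and -1.50 and passed the test (edgeR adjusted p = 0.000871 and 0.00663). With this scaling 26 of 136 genes passed in controls, all 26 lower. In the miR-25 arm 50 of 136 passed, 49 of them lower. Relative to the median gene CCND1 was -0.93 with totals and -1.03 with positive probes in controls, and RB1 was 0.07 and 0.11. The summed level of the 6 stellate or mesenchymal markers was 92692 to 99442 CPM at 24 h, 59073 to 90783 CPM at 48 h and 81844 to 90783 CPM at 48 h without replicate 1. Its members did not move one way: in controls CDH2 (-0.48), CD44 (-0.33) and CXCL12 (-0.55) were below 0 and PLAU (0.68), COL1A1 (0.34) and FGF2 (0.15) above, with a smallest edgeR adjusted p of 0.124. Without 48 h replicate 1 CXCL12 was -0.04 in controls, where edgeR called CDH2 (-0.67) and CD44 (-0.60) lower and COL1A1 (0.64) and PLAU (0.39) higher. The part of these genes in the CCND1 difference was not tested. In bulk RNA, fewer cells expressing a gene and less mRNA per cell cannot be told apart.

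Ratios between members within a sample need no scaling. The count of CCND1 was 15.6, 10.9 and 9.78 times that of CCND3 in the 24 h pairs (geometric mean of both arms) and 9.10, 3.94 and 4.24 times at 48 h. All 48 h values were lower, and the geometric mean went from 11.8 to 5.34, a log2 difference of -1.15. With 3 against 3 pairs the exact permutation test gave p = 0.1 (two-sided), the smallest it can give, and 0.2 after Benjamini-Hochberg adjustment over 6 ratios. The difference was -1.53 without 48 h replicate 1.

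The count of CCND1 was 2.34, 1.73 and 1.70 times that of RB1 at 24 h, and 1.71, 0.623 and 0.697 times at 48 h. RB1 thus gave more counts than CCND1 in 48 h replicates 2 and 3 only, while 48 h replicate 1, both arms averaged, was within the 24 h values. The log2 difference was -1.07 (exact permutation p = 0.2, adjusted 0.3), and -1.53 without that pair. CCND3 to RB1 was almost level, at 0.150, 0.159 and 0.174 at 24 h and 0.188, 0.158 and 0.164 at 48 h (log2 difference 0.08, exact permutation p = 0.6, adjusted 0.6).

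Relative to RB1 and CCND3, CCND2 was lower at 48 h when both arms of a pair were averaged, but single samples overlapped. CCND2 to RB1 was 0.0238, 0.0378 and 0.0366 at 24 h and 0.0197, 0.0235 and 0.0237 at 48 h (log2 difference -0.53, exact permutation p = 0.1, adjusted 0.2). CCND2 to CCND3 was 0.158, 0.238 and 0.211 at 24 h and 0.105, 0.148 and 0.145 at 48 h (-0.61, exact permutation p = 0.1, adjusted 0.2). In single samples CCND2 to RB1 was up to 0.0268 at 48 h (control replicate 3) and down to 0.0212 at 24 h (miR-25 replicate 1), and CCND2 to CCND3 was 0.167 and 0.137 in these samples. The ratio of CCND1 to CCND2 overlapped between times (-0.54, exact permutation p = 0.5, adjusted 0.6). None of the 6 ratios could pass a threshold of 0.05 in the exact permutation test.

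**Figure D3:**
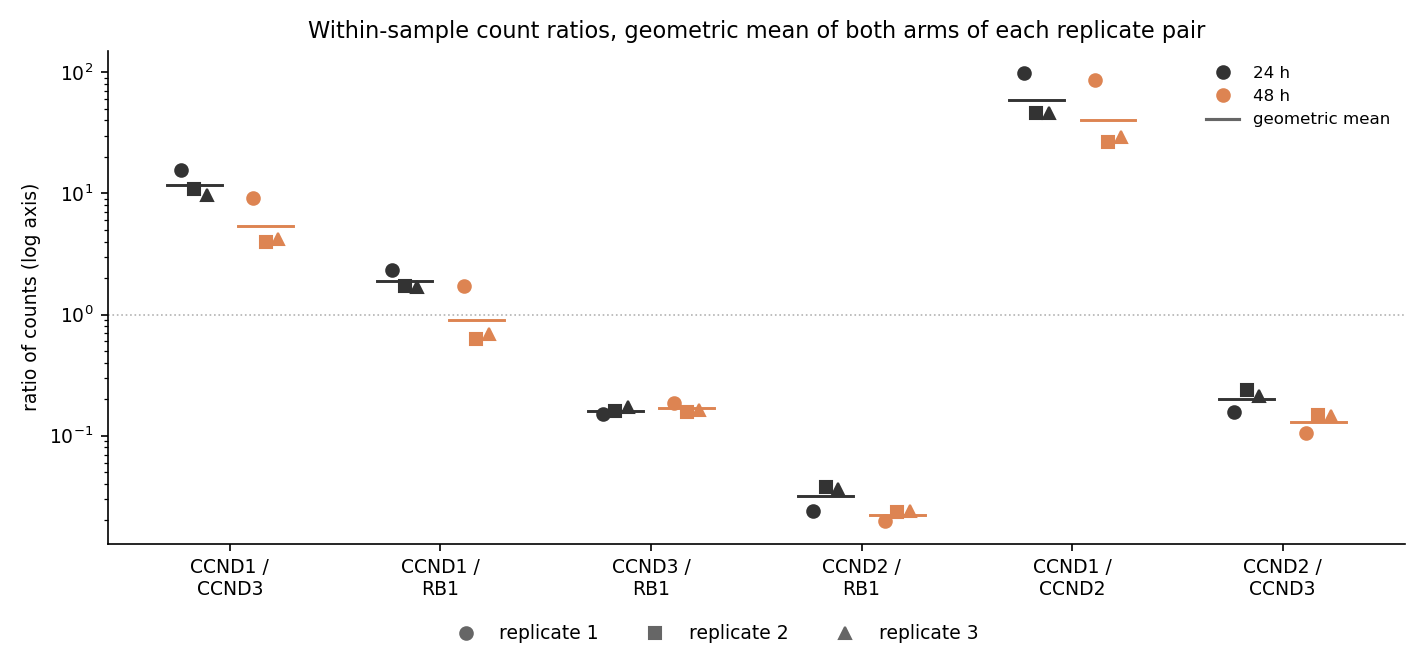
Ratios of counts between members within a sample (log axis), geometric mean of both arms, for each of the 3 replicate pairs at 24 h (black) and 48 h (orange); lines are geometric means and shapes replicate numbers. CCND1 to CCND3 went from 11.8 to 5.34 and CCND3 to RB1 from 0.161 to 0.170, and replicate 1 at 48 h (orange circle) lay near or among the 24 h values for both ratios of CCND1 to CCND3 and RB1.

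The miR-25 and control samples of a pair lay close together for CCND1 and RB1, and the differences of the 4 genes did not pass the test. Taken within a pair, the ratio of miR-25 to control for CCND1 was 1.10, 1.13 and 1.03 at 24 h, above 1 in 3 of 3 pairs, and 1.09, 0.988 and 0.981 at 48 h. Such counts of pairs were not made for all genes tested, whose median log2 fold change at 24 h was 0.03. In the fit with the pair as a block, CCND1 was 0.12 on the log2 scale at 24 h (SE 0.04, interval 0.03 to 0.20, unadjusted p = 0.00897, edgeR adjusted p = 0.543). At 48 h it was 0.03 (interval -0.07 to 0.13, edgeR adjusted p = 0.734), and over both times 0.08 (interval 0.01 to 0.14, edgeR adjusted p = 0.24). The 24 h value passed in the fit without 48 h replicate 1 (0.12, edgeR adjusted p = 0.00117) and in that of the 24 h samples alone (0.12, edgeR adjusted p = 0.00417). Each of these 2 fits called 3 of 136 genes. Their estimate rests on the same 24 h samples as the full fit, with an SE of 0.03 in place of 0.04. CCND1 at 24 h did not pass with TMM scaling in edgeR (adjusted p = 0.901), DESeq2 (0.991) or limma (0.887). The effect of miR-25 on CCND1 differed between the times by -0.09 (48 h minus 24 h, interval -0.22 to 0.04, edgeR adjusted p = 0.84).

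CCND3 gave ratios of 1.08, 1.19 and 0.960 in the 24 h pairs and of 1.13, 1.11 and 1.03 in the 48 h pairs, and the fit gave 0.10 and 0.11 (edgeR adjusted p = 0.778 and 0.54). Over both times CCND3 was 0.11 (interval 0.00 to 0.21, edgeR adjusted p = 0.254), above 1 in 5 of 6 pairs. CCND2 gave 0.807, 0.984 and 0.981 at 24 h, below 1 in 3 of 3 pairs, and 1.09, 1.18 and 0.772 at 48 h (edgeR adjusted p = 0.858 and 0.872). The 95% counting interval of each of the 6 CCND2 ratios included 1. At 48 h it ran from 0.629 to 1.88 in replicate 1, so a change of this size was not detectable in a single pair at this depth.

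RB1 was the most even of the 4. It gave ratios of 1.02, 1.03 and 1.05 in the 24 h pairs, above 1 in 3 of 3 pairs, and of 0.982, 1.03 and 0.981 in those of 48 h. Over both times the fit gave 0.02 (interval -0.04 to 0.08, edgeR adjusted p = 0.769). On a linear scale this interval runs from 0.975 to 1.05. By edgeR 0 of the 4 members were called at 24 h, at 48 h, over both times or in the difference between times, where the background was 0%, 0.735%, 0% and 0% of the 136 genes (0, 1, 0 and 0 genes). Before adjustment, p was under 0.05 for 9, 17, 26 and 8 genes, of which 1, 0, 2 and 0 were members (CCND1 at 24 h, CCND1 and CCND3 over both times). As shares of the genes tested these were 6.62%, 12.5%, 19.1% and 5.88%. DESeq2 called 0, 1, 1 and 1 genes (0%, 0.735%, 0.735% and 0.735%), and 0 members in each. The variation beyond counting error was a coefficient of variation of 3.45% in this fit, where the block takes out differences between pairs. It was 17.6% and 18.7% in the fits of time, which keep them.

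**Figure D4:**
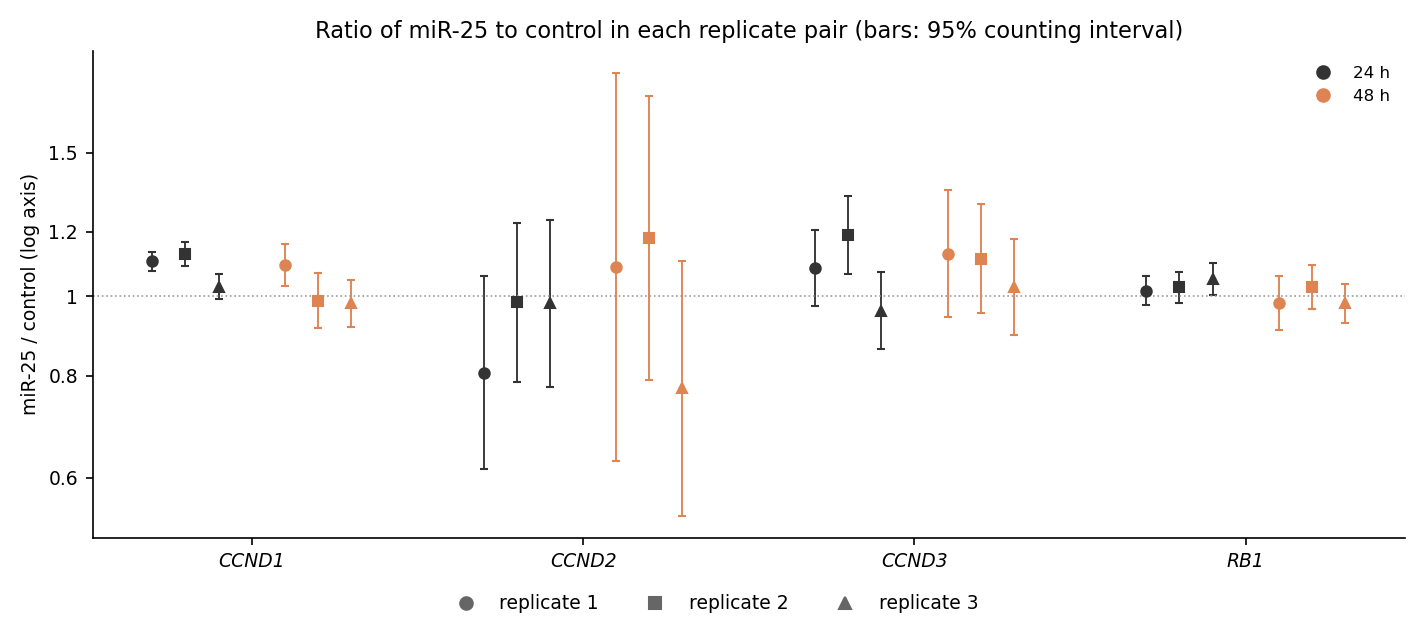
Ratio of miR-25 to control CPM (log axis) in each of the 3 replicate pairs at 24 h (black) and 48 h (orange) for the 4 members, with 95% intervals that cover counting error only. CCND1 lay at 1.03 to 1.13 at 24 h and RB1 at 0.981 to 1.05 over all 6 pairs, whereas CCND2 spread from 0.772 to 1.18 with wide intervals.

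EdgeR called no other cell-cycle gene of the list between the times with all samples. CCNA2, the cyclin A2 gene of S and G2 phase, was 22408 ± 1371 CPM in the 24 h and 17375 ± 3786 in the 48 h controls (log2 fold change -0.37, edgeR adjusted p = 0.18). CDK1, the mitotic kinase, was 19657 ± 967 and 19111 ± 906 CPM (-0.04, edgeR adjusted p = 0.756). CCNE1, the cyclin E1 gene of the G1/S step, was 932 ± 72.2 and 1031 ± 147 CPM (0.14, edgeR adjusted p = 0.518). This made 0 of 3 in either arm. The unadjusted p was under 0.05 for 0 in controls and 1 in the miR-25 arm, beside 30.9% and 31.6% of all genes. DESeq2 called CCNA2 in both arms, beside 16.2% and 24.3%. Without 48 h replicate 1 edgeR called only CCNA2, at -0.20 in controls and -0.24 after miR-25 (edgeR adjusted p = 0.0353 and 0.015). Those fits called 39.7% and 45.6% of all genes. The median log2 fold change of the 3 genes was -0.04 in controls beside 0.13 over all genes tested.

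HDAC1 and HDAC2, histone deacetylases recruited by the retinoblastoma protein, were 9111 ± 656 and 22279 ± 700 CPM in the 24 h controls. At 48 h they were 12617 ± 1499 and 22643 ± 749 CPM (0.47 and 0.02, edgeR adjusted p = 0.0771 and 0.829). With all samples edgeR called 0 of both genes in either arm. The unadjusted p was under 0.05 for 1 gene in each arm, beside 30.9% and 31.6% of all genes. DESeq2 called HDAC1 in both arms, beside 16.2% and 24.3%. HDAC1 was also called by edgeR without 48 h replicate 1 in both arms (0.37 and 0.31, edgeR adjusted p = 0.00456 and 0.00535), while HDAC2 was not, beside the same 39.7% and 45.6%.

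Among 8 genes that act on D-type cyclins, edgeR called 0 in either arm. The unadjusted p was under 0.05 for 1 in controls and 2 in the miR-25 arm, beside 30.9% and 31.6% of all genes. DESeq2 called TCF7 in controls and MYC and GLI2 in the miR-25 arm, beside 16.2% and 24.3%. The 8 include the transcription factors MYC, JUN and FOSL1, the Wnt effectors CTNNB1 and TCF7, and the Hedgehog factors GLI1 and GLI2. They also include GSK3B, the kinase that marks cyclin D1 for degradation. Their median log2 fold change was -0.06 in controls and -0.09 in the miR-25 arm, beside 0.13 and 0.09 over all genes tested. MYC was 3417 ± 36.1 CPM in the 24 h controls and 2971 ± 150 in those of 48 h (-0.20, edgeR adjusted p = 0.176). GLI2 was 1694 ± 168 and 2087 ± 301 CPM (0.30, edgeR adjusted p = 0.186). Without 48 h replicate 1, in controls 2 of 8 were called, both higher and beside 39.7% of all genes (GLI1 0.77 and TCF7 1.04, the latter with a mean of 23 counts over all samples). In the miR-25 arm 5 of 8 were, beside 45.6%, with GLI1 (0.91) and GLI2 (0.30) higher and JUN (-0.31), MYC (-0.35) and FOSL1 (-0.25) lower. TCF7 was -0.17 there and thus differed in sign between the arms, a difference that was not tested. In the miR-25 comparisons edgeR and DESeq2 called 0 genes of the 3 lists. The unadjusted p was under 0.05 for at most 2 genes of a list, beside 5.88% to 19.1% of all genes.

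The genes nearest to CCND1 in pattern were found by the root mean square difference of log2 levels, each centred on its mean over the 12 samples. They were CD44 (0.31), CDH2 (0.31) and MME (0.36), against a median of 0.66 over the genes tested. These encode the hyaluronan receptor, N-cadherin and the membrane metalloendopeptidase neprilysin. CD44 was 17659 to 19359 CPM at 24 h, 19706 and 16069 CPM in 48 h replicate 1, and 11268 to 12533 CPM in the other 48 h samples. Unlike CCND1, CD44 in the control sample of 48 h replicate 1 was thus above every 24 h sample. The 3 genes were picked for their likeness to CCND1, so a shared pattern is no separate result. The other members were about as far from CCND1 as a typical gene tested, with 0.72 to each of CCND2, CCND3 and RB1 (ranks 84, 86 and 88) beside the median of 0.66.

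**Figure D5:**
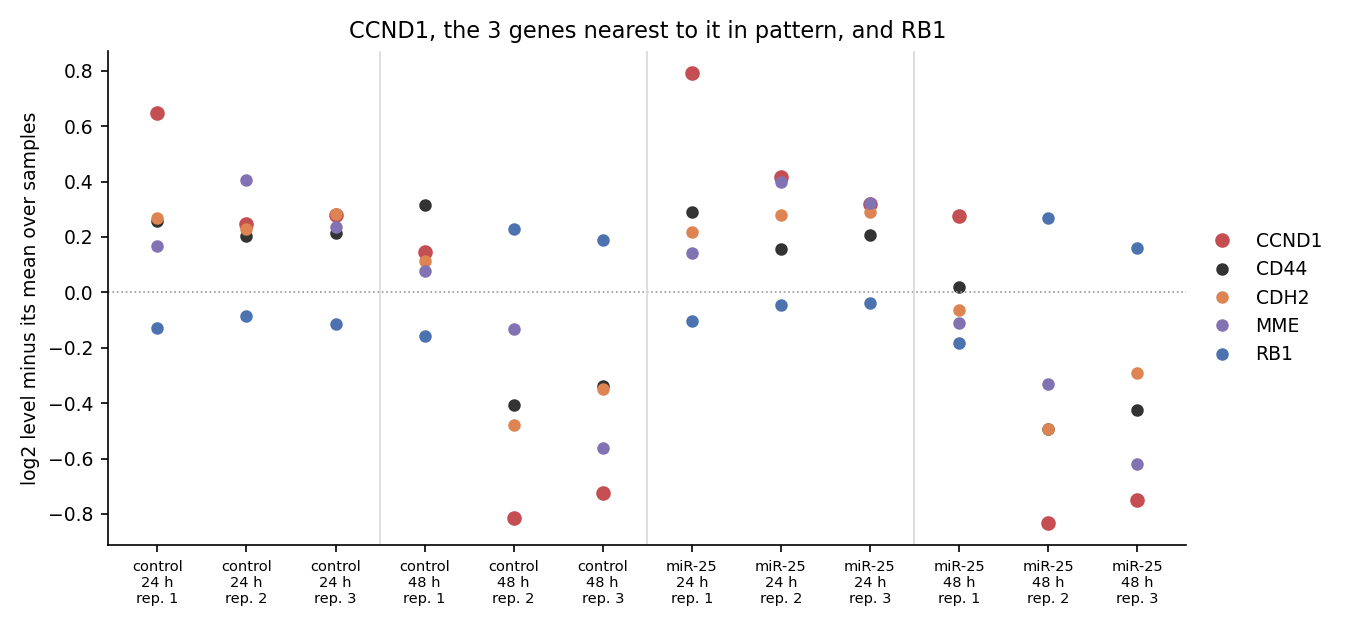
Log2 level minus the gene's mean over the 12 samples for CCND1, for CD44, CDH2 and MME, which were nearest to it, and for RB1, with samples on the horizontal axis ordered by arm, time and replicate. CCND1, CD44 and CDH2 were lowest in 48 h replicates 2 and 3 of both arms, where RB1 was highest.

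For CCND2 the nearest genes were LFNG (0.20), PRKCA (0.21) and CTBP2 (0.23), against a median of 0.42. For CCND3 they were CTBP1 (0.08), DVL2 (0.11) and TAB1 (0.11), and for RB1 they included RHOA (0.07) and the reference gene TUBB (0.08), against medians of 0.28 and 0.27. CCND3 and RB1 lay near each other (0.13, rank 15 and 16). Genes that vary little are near each other by this measure, and both CCND3 and RB1 varied little, with a root mean square of 0.17 and 0.16 around their own means, against 0.58 for CCND1 and 0.38 for CCND2.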

How the data were processed

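LX-2 RNA (50 ng) was hybridised to the panel. The authors deposited raw counts per probe for 199 genes, 8 negative and 6 positive control probes in 12 samples, read with the Digital Analyser and nSolver 3.0 before background correction or scaling. A genome build is not given in the sources used here, and positions are those of RefSeq. Names came from the panel sheet for 193 genes and from RefSeq for 6.

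Counts were tested with edgeR 4.0.16 (R 4.3.3) using the total over genes as library size, on 136 genes, those averaging 20 or more counts. Each arm was fitted alone for time. All 12 samples, with the replicate pair as a block, were fitted for miR-25, since the deviations of both arms from their group means correlated at 0.283 to 0.884 in the 6 pairs. The pairing came from the shared transfection efficiency and the study's ratios within replicates. The threshold was an adjusted p of 0.05. No samples of a group agreed within sampling noise. The study describes its data in general as coming from independent experiments. The labels do not say whether the replicates counted here were separate cultures, so p-values measure the spread between these samples. Intervals of ratios cover counting error only.

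Alternatives were DESeq2 1.42.0, limma 3.58.1 (log2 CPM plus 1), other scalings (TMM, positive probes, totals without GAPDH, and 5 reference genes, TUBB, HPRT1, GUSB, GAPDH and CLTC), filters and designs, and each replicate left out. Named genes were the members, the cell-cycle, RB1 partner and regulator lists and the 3 nearest genes of each member, of which 1 is not reported here. CD44, CDH2 and CXCL12 were also marker genes. Members and lists were chosen with earlier results of these data known. Python 3.11.15, numpy 2.4.6, pandas 2.3.3, scipy 1.17.1 and matplotlib 3.10.9 were used.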

Additional observations from a re-analysis of the deposited data

How the results depend on the processing

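For time in controls, CCND1 (-0.80) was -0.85 with DESeq2, -1.67 with positive probes (both called) and -1.17 to -0.63 with 1 sample left out. RB1 (0.21) and CCND3 (0.24) were -0.53 and -0.50 with positive probes, and RB1 0.14 to 0.32 with 1 sample left out. Genes called (7) were 22 with DESeq2, 26 with positive probes, 0 with replicate block and 1 to 54 with 1 sample left out. Without control replicate 1, 2 or 3 at 24 h the count was 2, 2 and 1, without control replicate 2 at 48 h 1, and without control replicate 1 at 48 h 54. For time after miR-25, CCND1 (-0.87) was -1.50 with positive probes and -1.31 to -0.67 with 1 sample left out. CCND3 (0.26) was 0.24 with DESeq2 (called), -0.30 with positive probes and 0.20 to 0.30 with 1 sample left out, and RB1 (0.16) was -0.39 with positive probes and 0.0627 to 0.28. Genes called (10) were 4 with reference genes, 33 with DESeq2, 6 without filter, 50 with positive probes, 17 in one fit of all samples, 0 with replicate block and 0 to 62 with 1 sample left out, 0 without any 1 of the 24 h samples, and 62, 1 and 2 without 48 h replicate 1, 2 and 3. The replicate block joins 24 h and 48 h samples that share only a number; their deviations correlated at -0.09 to 0.06. Leaving out both samples of 48 h replicate 1 is, within an arm, the same fit as leaving out its one sample.

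For miR-25 at 24 h, CCND1 was 0.12 with that time point alone (called) and 0.0921 to 0.157 with 1 pair left out; genes called (0) were 3 with that time point alone and 0 to 3. At 48 h, CCND1 (0.03) was -0.0229 to 0.0619, CCND2 (-0.05) was 0.0282 with background subtracted and -0.22 to 0.20, and RB1 (-0.0045) was -0.0273 to 0.0090 with 1 pair left out. Genes called (1) were 3 without filter, 0 with background subtracted, 0 without replicate block, 3 with that time point alone, and 0 to 2. Over both times, RB1 (0.02) was -0.0023 with TMM and -0.0025 with DESeq2, and CCND2 (-0.08) -0.16 to 0.0477. Genes called (0) were 1 with DESeq2, 1 with limma, 2 without filter and 0 to 2. In the difference between times, CCND2 (0.05) was -0.12 to 0.30 and CCND3 (0.01) -0.0685 to 0.0866 with 1 pair left out, and genes called (0) were 1 with TMM, 1 with DESeq2 and 1 without filter. The values that turned sign in the miR-25 comparisons were smaller than their SE in the full fit, and the cause was not tested. Shares of each D-type cyclin in controls moved by less than 1 SD with background subtracted. Leaving out 1 of 3 samples cannot move a mean by 1 SD, so the range is given instead. The CCND1 share in controls was then 89.3% to 91.4% at 24 h and 78.7% to 84.1% at 48 h. The log2 differences of the ratios of CCND1 to CCND3 and to RB1 were -1.53 to -0.93 and -1.53 to -0.80 with 1 pair left out. Depth limits CCND2, with 21 to 65 counts at 48 h.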
